A study of Mus musculus with 6 samples.

Results

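Histones are the proteins around which nuclear DNA is wound, and the RNAs of their genes were followed in an RNA immunoprecipitation sequencing (RIP-seq) study of the mouse left ventricle. Members were the genes whose symbol begins with Hist1h, Hist2h, Hist3h, Hist4h, H2af, H3f3 or H1f with a digit or x, without 4 names containing -ps. This gave 86 of 46072 genes, of which 70 were replication-dependent (Hist names) and 16 had the name of a replacement histone, among them H3f3aos, a non-coding RNA antisense to H3f3a. The study set RNA recovered with an antibody to EZH2, the methyltransferase of Polycomb repressive complex 2 (PRC2), beside RNA recovered with normal IgG, before and soon after angiotensin II (AngII), a peptide that raises blood pressure and drives cardiac hypertrophy. Male mice aged 10 weeks, for which no engineered allele is named, carried a minipump that delivered AngII at 1 mg/kg/min for 4 h (AngII 4 h) or 24 h (AngII 24 h). Sham mice received saline by the protocol and are labelled Untreated, and each treatment group had 2 mice. The strain is labelled C57BL/6 for the Sham libraries with either antibody and for the IgG libraries of both AngII groups, C57BL/7 for AngII 4 h with anti-EZH2, and C57BL/8 for AngII 24 h with anti-EZH2. From about 100 mg of ventricle per group, 2 immunoprecipitation products were mixed into each library, so that each treatment and antibody had 1 library, 6 in all, and no replicate. No test across replicates was therefore possible, and antibody was not tested over the 3 treatment groups as pairs. Differences below are described beside those of all genes and beside counting error.

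Replication-dependent histone genes supply the core histones H2A, H2B, H3 and H4 and the linker histone H1 while DNA is copied in S phase. They lie in clusters, most have no intron, and most of their mRNAs end in a stem-loop, bound by the protein Slbp, in place of a poly(A) tail, which ties their stability to DNA synthesis. Replacement histones such as H3.3, H2A.Z, macroH2A and H1.0 come from polyadenylated mRNAs with their own loci, are made outside S phase and are the usual supply in cells that rarely divide, such as adult cardiomyocytes.

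Levels are FPKM, fragments scaled to transcript length and to the mapped fragments of the library, from the separate table that the authors deposited for each library. Levels and rankings refer to these tables unless the series table, the other deposited form, is named. The depth inferred from these tables was 4329972 fragments in Sham IgG, 5256650 in AngII 4 h IgG and 3816997 in AngII 24 h IgG. In the anti-EZH2 libraries it was 5702692 (Sham), 7985571 (4 h) and 4783841 (24 h). Of the 86 members, 69 were above 0 in all 6 libraries and 7 were at 0 in each of them. Where values come as 3 with IgG and 3 with anti-EZH2, they follow Sham, 4 h of AngII and 24 h of AngII. Differences are log2 ratios of FPKM with 1 added, over the 8637 genes with a mean of at least 1 FPKM, and a difference past 2-fold is called. This left 63 members tested, 56 replication-dependent and 7 replacement. Among the 56 are Hist1h2aj and Hist1h2al, H2A genes that the annotation gives as pseudogenes. Differences are given relative to the median of all genes tested, which before centring lay at -0.16 (Sham), -0.055 (4 h) and -0.44 (24 h) for anti-EZH2 over IgG. For AngII over Sham it lay at 0.14 (4 h) and 0.16 (24 h) with IgG and at 0.25 (4 h) and -0.060 (24 h) with anti-EZH2. For members with 1 transcript model the fragments behind an FPKM were inferred, which was possible for 72, and ratios of these fragments, also relative to the median gene, carry exact 95% intervals that cover counting error only.

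Histone RNA was a small part of each library. The 70 replication-dependent genes summed to 296, 280.3 and 233 FPKM with IgG and to 240.6, 227 and 135 FPKM with anti-EZH2. The 16 replacement genes summed to 62.9, 75.7 and 72.8 FPKM with IgG and to 45.5, 61.5 and 51.8 FPKM with anti-EZH2. All members together held between 0.0145% and 0.0178% of the summed FPKM of a library. In the separate tables the replacement share of histone FPKM was 17.5%, 21.3% and 23.8% with IgG and 15.9%, 21.3% and 27.7% with anti-EZH2, lowest in Sham with either antibody. In the series table it was 40.6%, 42.9% and 29.5% with IgG and 36.9%, 40.3% and 33.8% with anti-EZH2, lowest after 24 h of AngII.

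H4, the core histone that pairs with H3, had the highest level of the replication-dependent types. Its 13 genes held 48.1%, 51.2% and 59.0% of replication-dependent FPKM with IgG and 43.1%, 49.5% and 44.6% with anti-EZH2. Hist1h4d had the highest mean, with 34.2, 34.7 and 22.5 FPKM with IgG and 18.8, 25.7 and 16.7 FPKM with anti-EZH2, though it lay under Hist1h4c in AngII 24 h IgG. Hist1h4h had 18.8, 19.95 and 21.9 FPKM with IgG and 17.2, 18.1 and 15.9 FPKM with anti-EZH2, a narrow range that the series table did not share (3.09, 2.57 and 18.4 FPKM, and 4.71, 3.67 and 24.7 FPKM). Hist1h4c had 17.5, 21.7 and 32.8 FPKM with IgG and 14.1, 20.96 and 7.73 FPKM with anti-EZH2, so that its highest and its lowest level in the separate tables were both at AngII 24 h, while in the series table its lowest was in Sham IgG. Of the 12 replication-dependent genes with the highest mean FPKM, 8 encode H4 (Hist1h4d, Hist1h4c, Hist1h4h, Hist1h4k, Hist1h4f, Hist1h4m, Hist1h4n and Hist1h4b).

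Linker histones, which bind DNA where it enters and leaves the nucleosome, were carried mainly by 2 genes. Hist1h1c (H1.2) had 7.83, 15.5 and 10.3 FPKM with IgG and 7.23, 11.3 and 11.2 FPKM with anti-EZH2. Hist1h1e (H1.4) had 13.8, 10.6 and 8.80 FPKM with IgG and 6.11, 9.72 and 7.28 FPKM with anti-EZH2. Hist1h1t, a linker histone known from testis, was at 0 in all IgG libraries and in Sham anti-EZH2, and at 2.62 FPKM (11 fragments) and 0.794 FPKM (2 fragments) in the anti-EZH2 libraries of AngII 4 h and AngII 24 h. It was not tested because its mean was under the minimum.

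The replacement histones were led by the genes of H3.3, the variant that is placed into chromatin independently of replication. H3f3a had 27.5, 29.0 and 27.1 FPKM with IgG and 16.7, 25.5 and 20.2 FPKM with anti-EZH2, and H3f3b, which encodes the same protein, had 4.93, 8.07 and 13.1 FPKM with IgG and 7.94, 6.73 and 6.23 FPKM with anti-EZH2. H2afz (H2A.Z) had 11.4, 7.57 and 13.8 FPKM with IgG and 2.11, 10.3 and 9.43 FPKM with anti-EZH2, lowest in Sham anti-EZH2. The other replacement histones tested were H2afv (a further H2A.Z), H2afy (macroH2A), H1f0 (H1.0) and H3f3c, a processed pseudogene copy of H3.3. Of the 7 members at 0 everywhere, 4 were replacement genes (H2afb1, H2afb2, H2afb3 and H2afy3) and the others were Hist1h2aa, Hist3h2ba and 1 of the 2 genes named Hist2h2bb.

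The replication-dependent genes were set apart by sequence. On chromosome 13 lie 56 of them, 11 on chromosome 3, 2 on chromosome 11 and 1 on chromosome 6. A stem-loop with a stem of 6 bases that starts with GG and ends with CC and a loop of 4 bases was found in the annotated transcript of 43 of 68 with a sequence (63.2%). In the last 100 bases it was found in 29 (42.6%) and, in the longest annotated transcript, in 28 of 21824 other protein-coding genes (0.128%). It was found in 12 of 13 H4, 9 of 12 H3, 11 of 20 H2A, 7 of 17 H2B and 4 of 6 H1 genes. Of 16 replacement genes 2 had a match: H2afx, which is known to have both a stem-loop and a poly(A) form, and H2afj, with the stem GGCCAC 1183 bases from the end of its model, so that the search also finds stems far from an end. The stem is shown for a gene of each type because it is the feature that separates these mRNAs from polyadenylated ones; capitals mark the stem and lower case the loop and 5 bases on either side, from GRCm38, on the minus strand for Hist1h1e and Hist1h3c and on the plus strand for the others. The stems lie at chr13:23581950-23581965 (Hist1h4d), chr13:23745047-23745062 (Hist1h3c), chr13:23571843-23571858 (Hist1h2bg), chr13:23751572-23751587 (Hist1h2ab) and chr13:23621782-23621797 (Hist1h1e).
Hist1h4d: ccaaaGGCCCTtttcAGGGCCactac
Hist1h3c: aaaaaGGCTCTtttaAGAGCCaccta
Hist1h2bg: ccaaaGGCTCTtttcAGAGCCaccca
Hist1h2ab: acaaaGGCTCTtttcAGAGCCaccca
Hist1h1e: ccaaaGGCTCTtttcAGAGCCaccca
The stem GGCCCT was found in 10 H4 genes, while 2 H4 genes (Hist1h4b and Hist1h4j) had GGTCCT and every stem found in a replication-dependent H1, H2A, H2B or H3 gene was GGCTCT.

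Copies of a type share much of their sequence, which bears on each value of a single gene. Of all 50-base stretches of a gene, the median share that recurs in another gene was 79.3% for H2A, 71.1% for H3, 53.6% for H2B, 40.4% for H4 and 4.27% for H1. Hist2h2aa2 shares all of its stretches (100%) with other genes, and Hist1h3h 93.9%. Fragments from such copies cannot be assigned to 1 gene, so that sums over a type are firmer than single genes. In the other deposited form, a table of the whole series, 13 of these 68 genes were above 0 in all libraries, 39 had some values at 0, 15 were at 0 throughout and 1 was not listed. Their median shared sequence was 30.1%, 59.4%, 89.8% and 100% in this order.

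The anti-EZH2 over IgG comparison asks which RNAs are recovered with EZH2, and replication-dependent histones as a group lay close to the median of all genes in it. Their median log2 difference was 0.068 (Sham), -0.045 (4 h) and -0.0018 (24 h). In Sham 1 of 56 was higher past 2-fold and 3 were lower (all genes 11.4% higher and 7.32% lower). At AngII 4 h 4 were higher and 4 lower (all genes 8.93% and 5.73%), and at AngII 24 h 3 were higher and 5 lower (all genes 10.4% and 11.2%). The share that was higher (1.79%, 7.14% and 5.36%) lay under that of all genes in each group, and the share that was lower (5.36%, 7.14% and 8.93%) lay above it at AngII 4 h only. The median depended on the setting: over 11 alternatives it ranged from -0.14 to 0.14 (Sham), from -0.28 to -0.00055 (4 h) and from -0.58 to 0.33 (24 h), and at 24 h it was -0.44 without centring. None of the 63 members was past 2-fold in the same direction in all 3 groups, where 1.05% of all genes were higher and 0.0695% lower. Higher past 2-fold were Hist2h2bb in Sham and Hist2h2bb (listed at 0 with IgG), Hist1h2ak and Hist1h3c at AngII 24 h, and lower were Hist2h2ab (listed at 0 with anti-EZH2), Hist1h2ae and Hist1h4f in Sham and Hist2h2bb, Hist1h2bm, Hist1h4m and Hist1h4n at AngII 4 h. The others were 4 H3 genes higher at AngII 4 h and, lower at AngII 24 h, Hist2h2ac (-1.26) and 4 H4 genes, with the H3 and H4 genes named below. By any amount, 8 of 56 replication-dependent genes were higher and 6 lower in all 3 groups (all genes 15.1% and 15.4%).

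**Figure D1:**
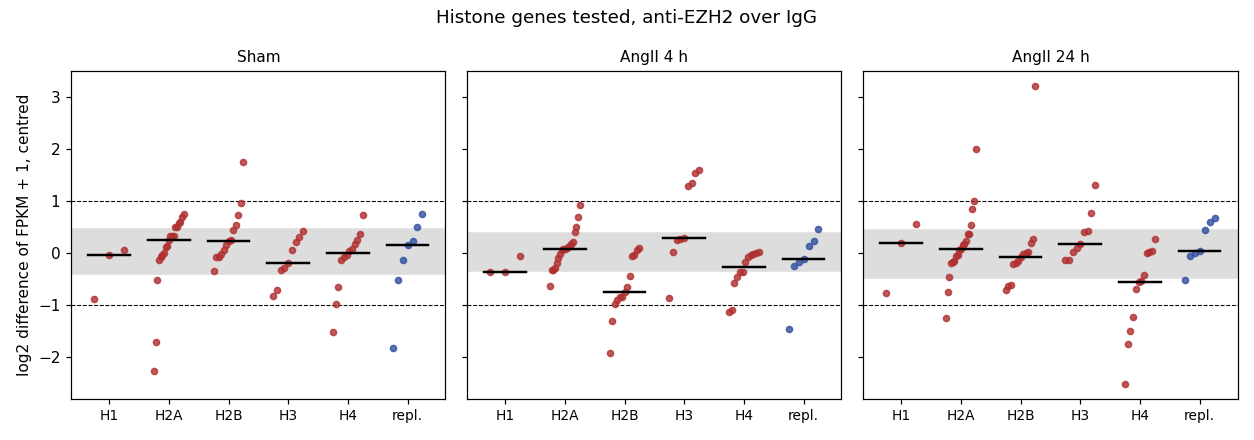
Log2 difference of FPKM with 1 added, anti-EZH2 over IgG, centred on the median of all genes tested, for each of 63 histone genes by type (red, replication-dependent; blue, replacement, marked repl.) in Sham, AngII 4 h and AngII 24 h. Black bars are medians, the grey band spans the middle of all genes from their lower to their upper quartile and dashed lines mark 2-fold; the medians of replication-dependent genes as a whole were 0.068, -0.045 and -0.0018, and at AngII 24 h the sign turned to 0.33 in the series table.

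By type, H4 was lower with anti-EZH2 at AngII 24 h in the separate tables, where it summed to 138 FPKM with IgG and 60.3 FPKM with anti-EZH2, while the series table had 80.9 and 70.04 FPKM. Its 13 genes had 129 inferred fragments with IgG and 76 with anti-EZH2, a ratio of 0.639 (95% interval 0.475 to 0.854). Of 12 H4 genes tested, 4 were lower past 2-fold, beside 11.2% of all genes. They were Hist1h4f, Hist1h4k, Hist1h4c and Hist1h4a, with log2 differences of -2.52, -1.75, -1.51 and -1.23. Of 1375 other genes under 600 bases, 29.7% were lower in the same comparison. Among 420 other protein-coding genes under 1000 bases it was 10.2%, and among 105 with 1 exon 3.81%. Whether gene length has a part in the H4 values was not tested. Hist1h4f had 19.9, 9.01 and 9.77 FPKM with IgG and 5.48, 8.64 and 0.385 FPKM with anti-EZH2, and Hist1h4k had 16.9, 15.9 and 13.2 FPKM with IgG and 14.0, 15.04 and 2.09 FPKM with anti-EZH2. Both were lowest in the anti-EZH2 library of AngII 24 h. The deposited FPKM intervals did not overlap for Hist1h4c and Hist1h4f, while 2.87% of all genes were lower past 2-fold with intervals apart. Hist1h4d and Hist1h4h lay at 0.032 and 0.0052 in the same comparison, so that H4 genes differed among themselves. The H4 ratio was 0.868 (0.686 to 1.10) in Sham and 0.812 (0.664 to 0.996) at AngII 4 h.

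At AngII 4 h H2B and H3 differed in opposite directions. H2B, with 12 genes for which fragments could be inferred, had 52 fragments with IgG and 38 with anti-EZH2, a ratio of 0.500 (0.320 to 0.774), while it was 1.38 (0.881 to 2.18) in Sham and 1.26 (0.711 to 2.24) at AngII 24 h. H3 had 27 fragments with IgG and 64 with anti-EZH2, a ratio of 1.62 (1.02 to 2.64), and 0.778 (0.502 to 1.203) in Sham and 1.08 (0.445 to 2.64) at AngII 24 h. All 4 genes higher past 2-fold at AngII 4 h encode H3, of which 9 genes were tested, beside 8.93% of all genes higher. They were Hist1h3b, Hist1h3i, Hist1h3c and Hist1h3f, with 1.599, 1.53, 1.34 and 1.29. Of other genes under 600 bases, 26.3% were higher past 2-fold in the same comparison. Among other protein-coding genes under 1000 bases it was 5.24%, and among those with 1 exon 8.57%. For Hist1h3b the FPKM intervals did not overlap, though it had only 0.761 inferred fragments with IgG and 9.75 with anti-EZH2. Of all genes, 1.46% were higher past 2-fold with intervals apart. In the series table no H3 gene reached the minimum to be tested, and summed H3 at AngII 4 h was 0.482 FPKM with IgG and 1.75 FPKM with anti-EZH2. H1 had ratios of 0.851 (0.622 to 1.16), 0.871 (0.700 to 1.09) and 1.31 (0.967 to 1.79), and H2A of 1.10 (0.785 to 1.53), 0.921 (0.672 to 1.27) and 1.14 (0.724 to 1.79), in the order Sham, AngII 4 h and AngII 24 h, all with intervals that hold 1. Over all replication-dependent genes with inferred fragments the ratio was 0.934 (0.810 to 1.08), 0.859 (0.760 to 0.970) and 0.974 (0.820 to 1.16).

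Replacement histones also lay near the median gene in the antibody comparison, with medians of 0.16 (Sham), -0.12 (4 h) and 0.032 (24 h) over 7 genes; without centring the sign turned in Sham (-0.0084) and at 24 h (-0.41). None was higher past 2-fold, and 1 was lower in Sham and 1 at AngII 4 h, beside 7.32% and 5.73% of all genes. The former was H2afz, with -1.83, whose FPKM intervals overlapped, and the latter was H2afv, with -1.46, from 11.99 FPKM with IgG and 3.55 FPKM with anti-EZH2, whose intervals did not. H2afv had 5.09 and 3.299 FPKM in the IgG libraries of Sham and AngII 24 h and 5.06 and 3.29 FPKM in the anti-EZH2 libraries. H1f0, with 35, 53 and 36 fragments with IgG and 49, 86 and 51 with anti-EZH2, had ratios of 1.19 (0.756 to 1.89), 1.11 (0.779 to 1.59) and 1.54 (0.983 to 2.42). It was the replacement gene higher by any amount in all 3 groups, and none was lower in all 3.

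The AngII over Sham comparison asks what changes early after the start of infusion, and here replication-dependent histones were lower than the median gene in the separate tables, while the sign turned in the series table, where fewer genes were tested. In the IgG libraries the median log2 difference was -0.36 at 4 h and -0.62 at 24 h. At 4 h 10 of 56 genes (17.9%) were lower past 2-fold and 2 were higher, beside 9.09% and 8.94% of all genes, and at 24 h 18 (32.1%) were lower and 0 higher, beside 8.66% and 10% of all genes. In the anti-EZH2 libraries the medians were -0.43 at 4 h and -0.77 at 24 h. At 4 h 11 genes (19.6%) were lower and 0 higher, beside 10% and 7.28% of all genes, and at 24 h 21 (37.5%) were lower and 0 higher, beside 13.5% and 8.06% of all genes. The 4 h and 24 h comparisons share the Sham library of their antibody, so their values stand side by side only. In bulk ventricle fewer cells of a type and less RNA per cell cannot be told apart.

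Of replication-dependent genes, 11 were tested in the series table (6 H4, 2 H1, 2 H2B, 1 H2A and 0 H3), with medians of 0.11 and 0.80 with IgG (4 h and 24 h) and 0.12 and 1.15 with anti-EZH2. The same 11 genes, an alternative chosen after seeing the data, had medians of -0.056 and -0.26 with IgG and 0.15 and -0.31 with anti-EZH2 in the separate tables. The genes tested and the table thus both moved the median, and at 4 h with anti-EZH2 the sign turned with the genes alone. Hist1h4c, for example, had 2.85, 2.95 and 30.9 FPKM with IgG and 2.97, 4.00 and 11.1 FPKM with anti-EZH2 in the series table. The series table differed from the separate tables by a factor that was higher for long than for short transcripts in the libraries of Sham and of AngII 4 h and lower for long ones in those of AngII 24 h. Among protein-coding genes under 600 bases its FPKM was 0.359 times that of the separate table in Sham IgG and 0.658 times in AngII 24 h IgG, compared with 0.495 and 0.553 times among those over 4000 bases. For AngII 4 h IgG these were 0.267 and 0.375. With anti-EZH2 the factors under 600 bases were 0.440 (Sham), 0.310 (4 h) and 0.958 (24 h), and over 4000 bases 0.612, 0.447 and 0.874. Summed by type and without centring, the series table gave 18.9, 15.2 and 80.9 FPKM with IgG and 16.7, 16.8 and 70.04 FPKM with anti-EZH2 for H4, and 4.31, 1.96 and 7.55 FPKM and 5.73, 2.49 and 4.80 FPKM for H2A. H2B had 4.95, 6.76 and 4.89 FPKM and 9.42, 3.37 and 12.7 FPKM, and H1 had 5.99, 7.01 and 14.1 FPKM and 6.21, 7.77 and 24.8 FPKM. How the series table was scaled is not given in the sources used here, and which form is nearer to the RNA present was not tested.

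The difference was smaller, or turned, among genes with a higher mean. Among the 13 genes with a mean of at least 5 FPKM the medians were 0.19 and -0.091 with IgG and -0.20 and -0.24 with anti-EZH2, for 4 h and 24 h. Every H3 gene tested lay under this minimum (highest mean 2.22 FPKM, Hist2h3b), so that level and type were not separated. The rule of past 2-fold with the FPKM intervals of both libraries apart was also applied to all 56 genes. It left 1 gene lower at 4 h with IgG (Hist1h2ae) and 0 in the other comparisons. Under the same rule 0.787% to 3.33% of all genes were lower over these comparisons, so that with 56 genes such counts say little. Without genes that share over 50% of their sequence, an alternative chosen after seeing the data, 18 remained, with medians of -0.13 and -0.13 with IgG and 0.016 and -0.62 with anti-EZH2. Summed over the 63 replication-dependent genes with inferred fragments, the ratio was 0.955 (0.833 to 1.10) at 4 h and 0.771 (0.659 to 0.901) at 24 h with IgG. With anti-EZH2 it was 0.875 (0.771 to 0.994) at 4 h and 0.772 (0.659 to 0.904) at 24 h.

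**Figure D2:**
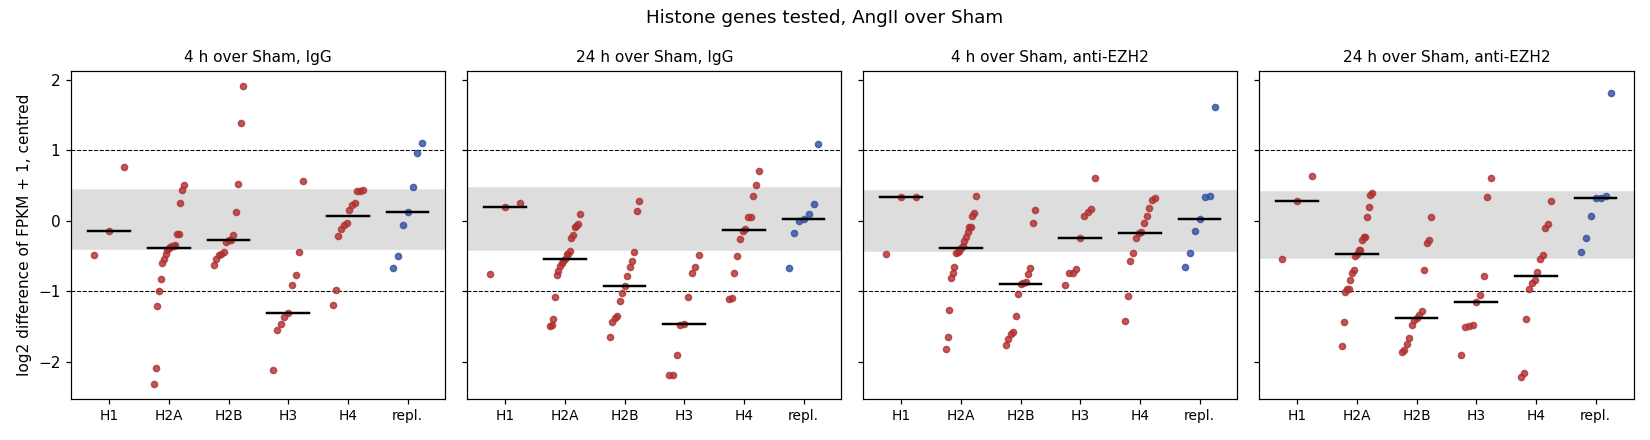
Log2 difference of FPKM with 1 added, AngII over Sham, centred on the median of all genes tested, for each of 63 histone genes by type (red, replication-dependent; blue, replacement, marked repl.), at 4 h and 24 h with IgG and with anti-EZH2. Black bars are medians, the grey band runs between the quartiles of all genes and dashed lines mark 2-fold; most replication-dependent genes lie under 0, with medians of -0.36, -0.62, -0.43 and -0.77, which turned to 0.11, 0.80, 0.12 and 1.15 over the 11 genes tested in the series table.

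H3 had the lowest fragment ratio to Sham of the types in the separate tables, except at 4 h with anti-EZH2. At 24 h with anti-EZH2 this rank counts Hist2h2be, with 16 of 29 H2B fragments, in H2B, and the rank without it is not given here. The 12 H3 genes had 47, 27 and 12 inferred fragments with IgG and 43, 64 and 12 with anti-EZH2. The ratio to Sham was 0.430 (0.258 to 0.705) at 4 h and 0.259 (0.125 to 0.496) at 24 h with IgG, and 0.894 (0.598 to 1.35) at 4 h and 0.347 (0.166 to 0.669) at 24 h with anti-EZH2. In the separate tables H3 was thus low in both libraries of AngII 24 h, and at 4 h low with IgG but not with anti-EZH2. The series table differed, with summed H3 of 0.969, 0.482 and 0.969 FPKM with IgG and 1.22, 1.75 and 3.38 FPKM with anti-EZH2, which at 24 h was level with Sham (IgG) or above it (anti-EZH2). Of 9 H3 genes tested, 5 were lower past 2-fold at 4 h with IgG, 6 at 24 h with IgG, 0 at 4 h with anti-EZH2 and 6 at 24 h with anti-EZH2, beside 9.09% (4 h) and 8.66% (24 h) of all genes with IgG and 10% and 13.5% with anti-EZH2. Hist1h3i had 5.39, 0.617 and 0.568 FPKM with IgG and 2.46, 3.49 and 0.167 FPKM with anti-EZH2, and Hist1h3h had 4.84, 1.48 and 0.747 FPKM with IgG and 3.54, 1.86 and 0.167 FPKM with anti-EZH2. Hist1h3g, with -2.18 at 24 h with IgG, was among the lowest too. With anti-EZH2, 4 of 9 H3 genes lay above 0 at 4 h and 2 at 24 h, Hist1h3c at both times (0.60 and 0.60), and with IgG it lay at -1.55 and -1.47. Each of these genes rests on 6 fragments or fewer in a library, and the interval of its own ratio to Sham holds 1.

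H2A, which pairs with H2B, had ratios to Sham under 1 in the separate tables, with an interval that holds 1 at 4 h with IgG. In the series table summed H2A at 24 h with IgG (7.55 FPKM, 5.62 of it from Hist2h2ac) was above Sham (4.31 FPKM, 0.896 of it from Hist2h2ac). Its 20 genes had 66, 72 and 41 fragments with IgG and 85, 97 and 43 with anti-EZH2. The ratios to Sham were 0.817 (0.577 to 1.16) at 4 h and 0.631 (0.416 to 0.945) at 24 h with IgG and 0.685 (0.507 to 0.928) and 0.629 (0.425 to 0.917) with anti-EZH2. Of 19 H2A genes tested, 4 and 4 were lower past 2-fold with IgG and 3 and 3 with anti-EZH2, beside 9.09% and 8.66% of all genes with IgG and 10% and 13.5% with anti-EZH2. Hist1h2ae had 6.72, 0.999 and 2.11 FPKM with IgG and 1.09, 1.03 and 0.663 FPKM with anti-EZH2, high in Sham IgG alone. Hist2h2ab had 4.40, 0.197 and 1.30 FPKM with IgG and 0, 0.518 and 0 FPKM with anti-EZH2. Hist1h2ak lay at -1.81 at 4 h with anti-EZH2. The cluster genes Hist2h2aa1 and Hist2h2aa2, which are close copies, had the highest means of the H2A genes in the separate tables, though not the highest level in each library. Hist1h2ae, Hist2h2ab and Hist2h2ac (5.31 FPKM) lay above both in Sham IgG, and Hist2h2ac (6.56 FPKM) in AngII 24 h IgG. Hist2h2aa2 had 4.33, 7.35 and 4.79 FPKM with IgG and 5.74, 6.54 and 7.49 FPKM with anti-EZH2, none of it past 2-fold from Sham. In the series table Hist2h2aa2 was at 0 throughout and Hist2h2aa1 had a mean of 0.0148 FPKM, while Hist2h2ac had the highest H2A mean (1.87 FPKM).

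H2B had 34, 52 and 25 fragments with IgG and 55, 38 and 29 with anti-EZH2. Its ratio to Sham was 1.15 (0.729 to 1.82) at 4 h and 0.746 (0.427 to 1.29) at 24 h with IgG and 0.415 (0.267 to 0.639) and 0.655 (0.403 to 1.05) with anti-EZH2. Hist2h2be, which was not among the genes tested, held 2, 12 and 11 of these fragments with IgG and 8, 10 and 16 with anti-EZH2. At 24 h the H2B ratios thus rest in large part on 1 gene. They would be lower without it, and ratios without it are not given here. Of 13 H2B genes tested, 0 and 6 were lower past 2-fold at 4 h and 24 h with IgG and 6 and 9 with anti-EZH2, beside 9.09% (4 h) and 8.66% (24 h) of all genes with IgG and 10% and 13.5% with anti-EZH2. In the series table summed H2B at 24 h with anti-EZH2 (12.7 FPKM) was above Sham (9.42 FPKM), where Hist2h2bb alone held 9.01 FPKM of the former and 3.00 FPKM of the latter. Hist1h2bb had 3.17, 2.14 and 0.481 FPKM with IgG and 3.11, 0.529 and 0.0837 FPKM with anti-EZH2, the largest fall of an H2B gene at 24 h with either antibody, by 1.65 with IgG and 1.86 with anti-EZH2 on the log2 scale. Hist1h2bc, whose model is longer than the cluster norm, had 6.20, 10.3 and 8.75 FPKM with IgG and 5.06, 6.98 and 3.68 FPKM with anti-EZH2. The 2 genes higher past 2-fold at 4 h with IgG were both H2B genes, Hist2h2bb (1.92) and Hist1h2bm (1.38).

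H4 had, with IgG, 145, 181 and 129 fragments and ratios to Sham of 0.935 (0.747 to 1.17) at 4 h and 0.903 (0.707 to 1.15) at 24 h. With anti-EZH2 it had 148, 215 and 76 fragments and ratios of 0.872 (0.704 to 1.08) and 0.638 (0.477 to 0.847). Of 12 H4 genes, 1 and 2 were lower past 2-fold with IgG and 2 and 3 with anti-EZH2, beside 9.09% (4 h) and 8.66% (24 h) of all genes with IgG and 10% and 13.5% with anti-EZH2. In the series table summed H4 at 24 h was above Sham with either antibody. Hist1h4k and Hist1h4f had the largest differences, -2.22 and -2.17, at 24 h with anti-EZH2. Hist1h4m and Hist1h4n, close copies of each other, were lower at 4 h with anti-EZH2, with -1.06 and -1.42, and at 24 h with IgG they lay at 0.35 and 0.51. Hist1h4c had the largest positive difference of a replication-dependent gene at 24 h with IgG, 0.71, which is not past 2-fold.

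Summed H1 fragments lay higher than in Sham, except at 24 h with IgG, while the median of the 3 H1 genes tested was -0.15 at 4 h and 0.20 at 24 h with IgG and 0.33 and 0.28 with anti-EZH2. Its 6 genes had 85, 150 and 80 fragments with IgG and 85, 191 and 97 with anti-EZH2. The ratios to Sham were 1.32 (1.006 to 1.75) at 4 h and 0.955 (0.695 to 1.31) at 24 h with IgG and 1.35 (1.04 to 1.76) and 1.42 (1.05 to 1.92) with anti-EZH2. Hist1h1c had the most fragments, with 46, 111 and 53 fragments with IgG and 56, 123 and 73 with anti-EZH2. Its ratio was 1.81 (1.27 to 2.61) at 4 h and 1.17 (0.773 to 1.78) at 24 h with IgG and 1.32 (0.954 to 1.84) and 1.62 (1.13 to 2.34) with anti-EZH2. Hist1h1e lay at -0.49 and -0.75 with IgG and 0.34 and 0.28 with anti-EZH2. Hist1h1d lay at -0.15 and 0.26 with IgG and -0.47 and -0.54 with anti-EZH2. The summed H1 ratios thus rest in large part on Hist1h1c, and ratios without it are not given here. Hist1h1c is known to give a polyadenylated mRNA in differentiated cells, and its model of 1560 bases reaches 840 bases past the stem-loop. The H1 genes tested, Hist1h1c, Hist1h1d and Hist1h1e, were never past 2-fold from Sham.

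**Figure D3:**
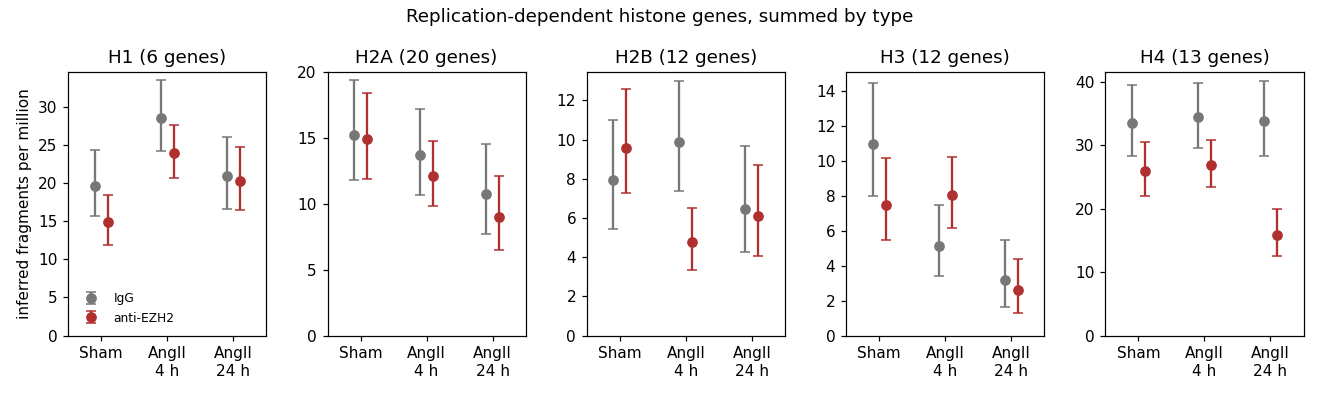
Inferred fragments relative to the depth of the library, summed over the replication-dependent genes of each histone type, in Sham, AngII 4 h and AngII 24 h with IgG (grey) and anti-EZH2 (red); points are single libraries and bars are 95% Poisson intervals of the count. H3 has 47, 27 and 12 fragments with IgG, H4 has 76 with anti-EZH2 at AngII 24 h against 129 with IgG, and H1 is highest at AngII 4 h with either antibody; these values are not divided by the median of all genes.

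Among all 72 genes with inferred fragments, the interval of the ratio of a single gene to Sham lay above 1 for 2 and below 1 for 2 at 4 h with IgG, and for 1 and 1 at 24 h with IgG. With anti-EZH2 it lay above 1 for 1 and below 1 for 2 at 4 h, and for 2 and 3 at 24 h. The share of all genes with such an interval is not given here. Among 72 genes a few intervals would leave out 1 by counting error alone, so these counts say little. Hist2h2be, an H2B gene with a model of 2620 bases and no stretch shared with another gene, was above 1 in 3 of these comparisons, from 2, 12 and 11 fragments with IgG and 8, 10 and 16 with anti-EZH2. Its mean of 0.801 FPKM was under the minimum, so it was not among the genes tested. H2afx, which marks sites of DNA breaks when phosphorylated, had 6, 12 and 3 fragments with IgG and 12, 2 and 1 with anti-EZH2, and was below 1 in both anti-EZH2 comparisons. Hist2h2be and H2afx were singled out after their values were seen.

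The length of the model separated the genes in part, in a split made after seeing the data. The 4 genes tested whose model exceeds 1000 bases (Hist1h1c, Hist1h2bc, Hist2h4 and Hist3h2a) had medians of 0.39 and 0.12 with IgG and 0.11 and -0.015 with anti-EZH2, at 4 h and 24 h. Past 2-fold 0 of them were lower, beside 9.09% and 8.66% of all genes with IgG and 10% and 13.5% with anti-EZH2, so that with 4 genes the 0 says little. The 50 shorter ones had medians of -0.38 and -0.69 with IgG and -0.43 and -0.81 with anti-EZH2. Short genes of other kinds also differed from Sham. Of 1375 other genes under 600 bases, 18.0% and 12.2% were lower past 2-fold with IgG and 26.1% and 41.7% with anti-EZH2, and 17.2% and 20.2% were higher with IgG and 14.2% and 9.24% with anti-EZH2. Of 420 other protein-coding genes under 1000 bases, 9.76% and 10.7% were lower with IgG and 11.2% and 12.6% with anti-EZH2. Of 105 other protein-coding genes with 1 exon, 1.90% and 4.76% were lower with IgG and 12.4% and 9.52% with anti-EZH2. Whether gene length or RNA form has a part in the histone values was not tested.

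The 7 replacement histones tested were not lower as a group after AngII with the settings used. Their medians were 0.12 at 4 h and 0.019 at 24 h with IgG and 0.018 and 0.32 with anti-EZH2, and with no minimum level the sign turned with anti-EZH2 (-0.036 and -0.20). In each comparison 1 of 7 was higher past 2-fold and 0 were lower, beside 8.94% and 10% of all genes higher with IgG and 7.28% and 8.06% with anti-EZH2. With no minimum level, 1 was lower at each time with anti-EZH2, and of the genes not tested, H2afx (both times with anti-EZH2) and H2afy2 (24 h with IgG) had an interval of the fragment ratio to Sham below 1. The gene higher past 2-fold was H2afy at 4 h with IgG (1.10), H3f3b at 24 h with IgG (1.09) and H2afz at 4 h and at 24 h with anti-EZH2 (1.61 and 1.81). H2afy had 2.68, 7.65 and 3.82 FPKM with IgG and 3.61, 5.97 and 4.62 FPKM with anti-EZH2, highest at 4 h with either antibody, while the series table had 0.478, 2.38 and 2.67 FPKM and 1.91, 1.89 and 5.51 FPKM, highest at 24 h. The FPKM intervals did not overlap for H3f3b only. The values of H2afz after AngII rest on its low level in Sham anti-EZH2. H3f3a lay between -0.18 and 0.33 in the 4 comparisons.

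H3.3 made up a larger part of H3 RNA after AngII than in Sham in the separate tables. It held 53.6%, 75.2% and 85.8% of the FPKM of all H3 genes with IgG and 56.6%, 63.0% and 82.7% with anti-EZH2. In the series table it held 94.4%, 96.8% and 97.0% with IgG and 92.1%, 88.7% and 90.9% with anti-EZH2, so that the direction turned with anti-EZH2. In the separate tables summed H3.3 was 35.7, 39.4 and 44.0 FPKM with IgG and 27.1, 34.96 and 28.9 FPKM with anti-EZH2, and summed replication-dependent H3 was 30.9, 13.0 and 7.26 FPKM with IgG and 20.8, 20.5 and 6.05 FPKM with anti-EZH2. H3f3a had 5.59, 3.597 and 2.07 times the FPKM of H3f3b with IgG and 2.10, 3.80 and 3.24 times with anti-EZH2.

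S phase genes were near the limit of these libraries. For the counts of this and the other lists, 7.28% to 10% of all genes were higher and 8.66% to 13.5% lower past 2-fold in AngII over Sham, and 8.93% to 11.4% were higher and 5.73% to 11.2% lower in anti-EZH2 over IgG. Of 22 S phase and proliferation genes, 3 were tested (Cenpa, Pcna and Mcm7), and the list summed to 15.4, 15.1 and 15.8 FPKM with IgG and 13.9, 20.4 and 16.4 FPKM with anti-EZH2. Over these 3 genes the median was 0.47 at 4 h and 0.11 at 24 h with IgG and -0.040 and 0.46 with anti-EZH2, and 0.13, 0.24 and 1.195 for anti-EZH2 over IgG in the 3 groups. Past 2-fold, 1 was lower at 24 h with IgG, 1 was higher at each time with anti-EZH2, and 2 were higher for anti-EZH2 over IgG at AngII 24 h. Cenpa, the centromeric H3 variant, had 4.05, 6.67 and 10.2 FPKM with IgG and 3.91, 11.0 and 5.49 FPKM with anti-EZH2. Pcna, the clamp of DNA polymerases, had 3.26, 1.45 and 1.35 FPKM with IgG and 2.33, 1.78 and 2.97 FPKM with anti-EZH2. Mcm7, of the replicative helicase, had 0.335, 1.19 and 0.611 FPKM with IgG and 0.409, 0.630 and 2.91 FPKM with anti-EZH2.

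Of 17 genes of histone mRNA processing and decay, 7 were tested. The list summed to 21.5, 18.9 and 27.3 FPKM with IgG and 14.3, 25.3 and 13.6 FPKM with anti-EZH2. The median was -0.13 at 4 h and -0.063 at 24 h with IgG and 0.29 and 0.076 with anti-EZH2, with 1 higher past 2-fold at 24 h with IgG, 1 at 4 h with anti-EZH2 and 0 lower. For anti-EZH2 over IgG it was -0.15, 0.13 and -0.13, with 1 lower in each group and 1 higher at AngII 4 h. Slbp, the stem-loop binding protein, had 4.53, 2.48 and 3.01 FPKM with IgG and 1.03, 0.592 and 1.41 FPKM with anti-EZH2. Lsm10, of the U7 particle that cuts histone pre-mRNA, had 1.54, 1.26 and 8.69 FPKM with IgG and 1.16, 4.82 and 1.92 FPKM with anti-EZH2. The U7 RNA itself (Rnu7) was at 0 in every library, and Srrt had the highest mean of the list.

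Of 21 histone chaperone genes, 15 were tested; the list summed to 46.0, 54.7 and 65.2 FPKM with IgG and 47.9, 62.1 and 43.1 FPKM with anti-EZH2, with medians of 0.19 and -0.061 with IgG and 0.11 and 0.13 with anti-EZH2. Past 2-fold, 0 were higher and 2 lower at 4 h with IgG, 2 and 2 at 24 h with IgG, 3 and 1 at 4 h with anti-EZH2 and 1 and 1 at 24 h with anti-EZH2, where 7.28% to 10% of all genes were higher and 8.66% to 13.5% lower. For anti-EZH2 over IgG the median was 0.13, 0.17 and -0.0014, with 3 higher at AngII 4 h and 1 lower at AngII 24 h. Anp32e, a chaperone of H2A.Z, had 3.96, 8.03 and 8.46 FPKM with IgG and 3.97, 4.63 and 8.63 FPKM with anti-EZH2. Atrx, which places H3.3, had 5.36, 6.99 and 5.75 FPKM with IgG and 8.71, 5.74 and 4.36 FPKM with anti-EZH2. Chaf1b, of the complex that places replication-dependent H3, was at 0 in every library and Chaf1a at no more than 0.242 FPKM.

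Of 10 PRC2 genes, 7 were tested; the list summed to 23.2, 24.2 and 23.6 FPKM with IgG and 17.3, 22.1 and 17.9 FPKM with anti-EZH2, with medians of -0.28 and 0.040 with IgG and -0.020 and -0.23 with anti-EZH2, and of 0.11, 0.051 and 0.058 for anti-EZH2 over IgG. Ezh2, which methylates H3 on lysine, had 1.67, 1.05 and 2.06 FPKM with IgG and 0.266, 1.19 and 0.659 FPKM with anti-EZH2. Past 2-fold, 1 gene was higher at 4 h and 1 lower at 24 h with IgG, and 1 was lower for anti-EZH2 over IgG in Sham and 1 at AngII 24 h. Rbbp7, which binds histone H4 in several complexes, was the most abundant of the list, at 7.22, 9.41 and 9.39 FPKM with IgG and 6.92, 10.3 and 5.47 FPKM with anti-EZH2.

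Atrial markers moved with AngII over Sham, while cardiomyocyte markers stayed within 2-fold. All 8 cardiomyocyte markers were tested and none was past 2-fold in any comparison; they summed to 6331, 8582 and 7677 FPKM with IgG and 4924, 7643 and 5139 FPKM with anti-EZH2, led by Myl2. The 3 atrial markers summed to 34.5, 11.1 and 5.14 FPKM with IgG and 23.1, 10.5 and 5.36 FPKM with anti-EZH2, so that they were highest in Sham with either antibody. Nppa, which hypertrophy also induces in ventricle, was the most abundant on average, Myl7 had 14.3, 0.491 and 0 FPKM with IgG and 12.2, 0.323 and 0 FPKM with anti-EZH2, and Sln was at 0 in every library. Of the 2 tested, 2 and 2 were lower past 2-fold with IgG and 1 and 1 with anti-EZH2, with medians of -2.25 and -3.02 with IgG and -1.95 and -2.25 with anti-EZH2. Their part in the histone result was not tested.

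Other cell types in the ventricle were present at lower levels. The 6 fibroblast markers, led by Dcn, summed to 74.5, 49.9 and 60.6 FPKM with IgG and 63.4, 53.0 and 52.5 FPKM with anti-EZH2, the 5 endothelial markers, led by Pecam1, to 27.2, 23.4 and 22.2 FPKM and 23.4, 29.4 and 12.9 FPKM. The 7 macrophage and leukocyte markers, led by Lyz2, summed to 33.1, 24.8 and 30.0 FPKM with IgG and 30.0, 18.9 and 17.9 FPKM with anti-EZH2, and the 3 smooth muscle markers, led by Acta2, to 6.52, 7.54 and 6.14 FPKM and 5.10, 5.20 and 2.40 FPKM. The 5 erythroid markers, led by Hbb-bs, summed to 920.4, 625 and 1454 FPKM with IgG and 724, 587 and 810.0 FPKM with anti-EZH2. Neutrophil markers (S100a8 and S100a9) were at 0 except at AngII 4 h with anti-EZH2, where they summed to 3.02 FPKM, and of the adipose markers Adipoq had 0.521 FPKM in Sham anti-EZH2, Cfd 0.290 FPKM in AngII 24 h anti-EZH2, and Plin1 was at 0. The lists with genes tested had medians of -0.75 and -0.47 (fibroblast), -0.35 and -0.24 (endothelial), -0.57 and -0.25 (macrophage and leukocyte), 0.10 and -0.080 (smooth muscle) and -0.62 and 0.45 (erythroid) with IgG at 4 h and 24 h. With anti-EZH2 these were -0.27 and 0.031, 0.31 and -0.32, -0.75 and -0.49, -0.13 and -0.45, and -0.50 and 0.30, in the same order. The list medians of fibroblast, endothelial, and macrophage and leukocyte markers (the last over 3 of 7 genes) thus lay under the median gene at both times with IgG. So did the gene medians of H2A, H2B and H3, although summed H2B fragments at 4 h, with Hist2h2be among them, had a ratio of 1.15. Those of H4 (0.061 and -0.13) and H1 (-0.15 and 0.20) did not at both times. With anti-EZH2 the gene medians of H2A, H2B, H3 and H4 lay under the median gene at both times. There the fibroblast list lay at 0.031 at 24 h and the endothelial list at 0.31 at 4 h, while the macrophage and leukocyte list lay lower. Single markers differed in direction: at 4 h and 24 h with IgG, Dcn lay at 0.080 and -0.046, Flt1 at 0.38 and -0.24, and Tek at -0.35 and 0.40. The part of these cell types in the histone result was not tested.

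Promoters were read from RefSeq (GRCm38.p6, around the start of transcription) for the 74 members with an entry and searched on both strands for CCAAT (the CCAAT box), for TATAA (from the TATA box) and for TTTGCAT, the core of the octamer. The 2 genes named Hist2h2bb share 1 promoter, counted once. CCAAT was found in 52 of 61 replication-dependent promoters (85.2%) and in 37.4% of 32851 promoters of all genes, TATAA in 48 (78.7%) and 24.9%, and TTTGCAT in 14 (23.0%) and 4.63%. CCAAT was in all 6 H1, 17 H2A, 16 H2B and 10 H3 promoters but in only 3 of 12 H4 promoters, and TTTGCAT was in 7 of 17 H2A and 6 of 16 H2B promoters, in 1 of 12 H4 and in 0 of 6 H1 and 0 of 10 H3 promoters. A match is a description of these letters and not of a bound factor. Of the 3 promoters shown, those of the gene with the highest mean (Hist1h4d, chr13:23581318-23581617, plus strand) and of 2 genes with large negative differences after AngII (Hist1h3i, chr13:21783348-21783647, minus strand, and Hist1h2bb, chr13:23746484-23746783, plus strand), capitals mark the motifs on either strand.
Hist1h4d: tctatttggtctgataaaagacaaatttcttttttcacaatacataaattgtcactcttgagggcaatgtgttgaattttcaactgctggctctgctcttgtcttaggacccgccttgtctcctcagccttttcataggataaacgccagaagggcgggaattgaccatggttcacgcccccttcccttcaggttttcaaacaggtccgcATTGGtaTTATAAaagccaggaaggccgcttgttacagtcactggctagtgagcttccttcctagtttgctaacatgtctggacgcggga
Hist1h3i: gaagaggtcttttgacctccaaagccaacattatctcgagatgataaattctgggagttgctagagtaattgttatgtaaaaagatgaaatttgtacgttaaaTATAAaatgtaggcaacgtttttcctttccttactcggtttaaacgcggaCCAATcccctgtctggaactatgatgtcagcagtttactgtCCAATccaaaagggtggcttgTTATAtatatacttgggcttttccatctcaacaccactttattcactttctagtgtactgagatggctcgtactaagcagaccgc
Hist1h2bb: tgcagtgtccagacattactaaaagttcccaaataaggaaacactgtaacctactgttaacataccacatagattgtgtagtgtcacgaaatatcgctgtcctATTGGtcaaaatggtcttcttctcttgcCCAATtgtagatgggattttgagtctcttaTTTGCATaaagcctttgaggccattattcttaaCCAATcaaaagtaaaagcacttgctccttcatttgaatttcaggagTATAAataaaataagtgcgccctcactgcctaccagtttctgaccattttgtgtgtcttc
The H2B promoter holds all 3 motifs, and the H3 and H4 promoters shown hold CCAAT and TATAA without TTTGCAT.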

How the data were processed

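RNA recovered from lysates of mouse left ventricle with normal IgG or with anti-EZH2 was sequenced by the submitters (stranded libraries), in 6 libraries, 1 for each of 3 treatment groups and 2 antibodies. The authors' processing notes name TopHat2 and mm10; the program that computed the values is not given in the sources used here. The authors deposited FPKM for each gene in a separate table per library and in a table of the series, and the deposited tables also give the lower and upper bounds of each FPKM interval. Members were found by gene symbol, and groups were taken from the labels.

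FPKM of the separate tables were compared as log2 of the value with 1 added, over genes with a mean of at least 1 FPKM, centred on the median of these genes, and a difference past 2-fold was called. No test was made. Each treatment and antibody has 1 library and no replicate, and antibody was not tested over the 3 treatment groups as pairs. Interval bounds fell within 0.02 of a whole multiple of 1 fragment for 93.7% to 95.8% of the genes used, which gave the depth of each library, from 3816997 to 7985571 fragments. The unit was taken as the largest one that scored within a set tolerance of the best, a tolerance chosen after the plain best value gave a fraction of the unit in 3 libraries. Fragments of single-model genes were then inferred with an assumed fragment length of mean 200 and SD 80 bases, chosen because it fits low values, of which 53.5% to 58.5% came within 0.1 of a whole fragment; the share that would do so by chance was not computed. At this depth many single histone genes rest on a few fragments, so ratios of fragments carry exact binomial 95% intervals. In 1 to 5 members per library the FPKM lies above its own upper bound.

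Genes were named by rule: each replacement histone tested, the 12 replication-dependent genes with the highest mean, any gene past 2-fold one way in all 3 groups, up to 3 with the largest difference each way after AngII, and the 3 with the highest mean of each list. Other names were chosen after their values were seen. Members and lists were chosen with earlier results of these data known. Chosen after seeing the data were the summed-fragment and shared-sequence alternatives, the separate tables limited to genes tested in the series table, the split at 1000 bases, the other gene classes and the promoters shown. Sequence came from GENCODE M21 and RefSeq. Alternatives changed the pseudocount, the minimum, the centring, the table, the threshold and the summing. The code was tested on simulated data and used pandas 2.3.3, matplotlib 3.10.9, numpy 2.4.6 and scipy 1.17.1 under Python 3.11.15. Names containing -ps were left out, and raw reads were not analysed here.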

Additional observations from a re-analysis of the deposited data

Results flagged for a closer look

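Hist2h2bb, an H2B gene on chromosome 3, differed in opposite directions between treatment groups. For anti-EZH2 over IgG its log2 difference was 1.75 (Sham), -1.93 (4 h) and 3.22 (24 h), where IgG is listed at 0 and the value rests on the 1 FPKM added. For AngII 4 h over Sham it was 1.92 with IgG and -1.77 with anti-EZH2. Its levels were 1.29, 8.51 and 0 FPKM with IgG and 5.88, 1.40 and 5.84 FPKM with anti-EZH2, from 1, 8 and 0 fragments with IgG and 6, 2 and 5 with anti-EZH2. Each group has 1 library per antibody, and the difference between groups was not tested.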

How the results depend on the processing

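Values are in the order AngII 4 h and AngII 24 h with IgG, then AngII 4 h and AngII 24 h with anti-EZH2, for AngII over Sham, and Sham, AngII 4 h and AngII 24 h for anti-EZH2 over IgG. The separate tables gave replication-dependent medians of -0.36, -0.62, -0.43 and -0.77 for AngII over Sham and 0.068, -0.045 and -0.0018 for anti-EZH2 over IgG. Over 11 alternatives the AngII medians ranged from -0.51 to 0.19, from -0.84 to 0.80, from -0.60 to 0.15 and from -1.09 to 1.15, and were below 0 in 9, 10, 8 and 10 of them. Replacement medians moved by less than the counting error of replacement fragments, a wide margin, in all 56 comparisons, but some changed sign. Between antibodies the Sham median went from 0.16 to -0.31 (FPKM summed), -0.15 (mean of at least 5 FPKM) and -0.0084 (no centring), and the 24 h median from 0.032 to -0.41 (no centring), -0.39 (no minimum) and -0.020 (pseudocount of 5 FPKM). After AngII the 24 h median with IgG went from 0.019 to -0.093 (mean of at least 5 FPKM) and -0.025 (centred on multi-exon genes), and the 24 h median with anti-EZH2 from 0.32 to -0.20 (no minimum). The 4 h median with anti-EZH2 went from 0.018 to -0.18 (mean of at least 5 FPKM), -0.062 (series table), -0.036 (no minimum), -0.028 (centred on multi-exon genes) and -0.024 (pseudocount of 0.1 FPKM). The count of genes past 2-fold in the same direction in all 3 groups stayed at 0 under each alternative that gives counts. Except where construction shows it, the cause of a change was not tested. Counts under an alternative are given without the share of all genes under it, except where FPKM intervals were apart. They show how a count moved, and not whether it lay apart from that of all genes.

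In the series table the sign of the replication-dependent AngII medians turned, to 0.11, 0.80, 0.12 and 1.15, and the anti-EZH2 over IgG median at AngII 24 h became 0.33. Of its 11 genes tested, 0, 1, 1 and 2 were lower after AngII, and 1 (4 h IgG), 4 (24 h IgG) and 6 (24 h anti-EZH2) were higher. For anti-EZH2 over IgG 0 were higher at AngII 4 h, and 1 was lower in Sham and 1 at AngII 4 h. Of replacement genes 1 was higher for anti-EZH2 over IgG at AngII 24 h, 0 lower at AngII 4 h, and 0 and 2 were higher for AngII 4 h and 24 h over Sham with anti-EZH2. The genes tested in the series table, taken from the separate tables (chosen after seeing the data; fewer genes by construction), had AngII medians of -0.056, -0.26, 0.15 and -0.31; 1, 2, 1 and 2 were lower, and 1 was higher at 4 h with IgG. Between antibodies 0 (4 h) and 1 (24 h) were higher, and 1 (Sham) and 1 (4 h) were lower.

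With a mean of at least 5 FPKM, which leaves 13 replication-dependent genes, AngII medians were 0.19, -0.091, -0.20 and -0.24, so that the sign turned at 4 h with IgG. Lower after AngII were 1, 1, 2 and 2, and 0 were higher at 4 h with IgG. In the antibody comparison 0 were higher in Sham and 0 at AngII 4 h, and 1, 2 and 3 were lower. Of replacement genes 0 were higher at 4 h with IgG. With no minimum the AngII 4 h medians were -0.16 (IgG) and -0.15 (anti-EZH2), the antibody median at AngII 24 h was -0.37, 1 gene was higher at AngII 4 h with anti-EZH2, and for anti-EZH2 over IgG 6 were lower in Sham and 11 at AngII 24 h. Of replacement genes 2 were higher at 4 h with IgG, 2, 2 and 1 were lower for anti-EZH2 over IgG, and 1 and 1 were lower after AngII with anti-EZH2.

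Without genes that share over 50% of their sequence, chosen after seeing the data, 18 remained, with AngII medians of -0.13, -0.13 and 0.016 for the comparisons that moved (4 h IgG, 24 h IgG and 4 h anti-EZH2, where the sign turned) and an antibody median at AngII 24 h of -0.58. Lower after AngII were 2, 5, 1 and 4, and 0 were higher at 4 h with IgG. Between antibodies 0, 0 and 0 were higher and 0 were lower at AngII 4 h. Fewer genes were tested by construction. Summed fragments, also chosen after seeing the data, gave -0.067, -0.38, -0.19 and -0.37 for AngII over Sham. FPKM summed over the class gave -0.28 at AngII 4 h and -0.36 at AngII 24 h for anti-EZH2 over IgG. Both give a ratio of sums and no count of genes.

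With a pseudocount of 5 FPKM, which draws low values together, AngII medians were -0.15, -0.26, -0.19 and -0.33; 1, 0, 0 and 1 genes were lower and 1 was higher at 4 h with IgG. For anti-EZH2 over IgG 0, 0 and 1 were higher and 1, 1 and 3 lower. Of replacement genes 0 were higher at 4 h and 0 at 24 h with IgG, 0 at 4 h with anti-EZH2, and 0 were lower for anti-EZH2 over IgG at AngII 4 h. With a pseudocount of 0.1 FPKM the AngII 24 h median with anti-EZH2 was -1.09 and the antibody median at AngII 24 h was -0.42. After AngII 21 were lower at 4 h with anti-EZH2, and 2 and 1 were higher at 4 h and 24 h with anti-EZH2. In the antibody comparison 3, 7 and 6 were higher and 5, 10 and 14 lower. Of replacement genes 2 were higher at 4 h with IgG.

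Without centring the antibody median at AngII 24 h was -0.44 and the AngII 4 h median with anti-EZH2 was -0.18; 5 and 12 genes were lower for anti-EZH2 over IgG in Sham and at AngII 24 h, and 2 replacement genes were higher at 4 h with IgG. Centred on multi-exon protein-coding genes, 2 were higher for anti-EZH2 over IgG in Sham; this centring was not run on the series table.

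Past 1.5-fold, a lower threshold by construction, 16, 29, 23 and 32 were lower after AngII, and 1, 1 and 2 were higher at 24 h with IgG and at 4 h and 24 h with anti-EZH2. Between antibodies 7 and 6 were higher in Sham and at AngII 24 h, and 8, 13 and 11 lower. Of replacement genes 1 and 2 were higher for anti-EZH2 over IgG in Sham and at AngII 24 h, 2 were higher at 4 h with IgG, and 1, 1 and 1 were lower at 4 h and 24 h with IgG and at 4 h with anti-EZH2. Past 2-fold with FPKM intervals apart, a stricter rule by construction, 1, 0, 0 and 0 were lower after AngII and 0 higher at 4 h with IgG. Of all genes 0.892% to 2.21% were higher and 0.787% to 3.33% lower after AngII under this rule. In the antibody comparison 0, 1 and 0 were higher and 1, 0 and 2 lower, beside 0.706% to 2.003% and 0.799% to 2.87% of all genes. Of replacement genes 0 were higher at 4 h with IgG and 0 and 0 at 4 h and 24 h with anti-EZH2, and 0 were lower for anti-EZH2 over IgG in Sham.

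Of the other results, summed FPKM of the replication-dependent genes stayed within 1.5 times the reported value in 7 of 12. Depth limits single genes: with a few fragments per library, the 95% interval of a single ratio is wide, and for Hist1h3i it holds 1 in each comparison with Sham even where FPKM differ past 2-fold. With 1 library per treatment and antibody, differences between animals and between precipitations are not measured.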

Other observations

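Hist2h2bb is the symbol of 2 genes in the tables; the one tested is named above, and the other is at 0 in every library. Of 236 snRNA genes tested, 70.3% were lower past 2-fold at AngII 24 h over Sham with anti-EZH2, beside 13.5% of all genes. With IgG 4.24% were lower and 32.6% higher, and in Sham 61.9% were higher with anti-EZH2 than with IgG.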
